A study of Mus musculus with 4 samples.

Results

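The 9 genes described here are interferon-stimulated genes, taken by name: Oas1a, Oas2, Rsad2, Bst2, Ifit1, Isg15, Stat2, Irf9 and Irf7. A probe belonged to a gene if its symbol on the array platform was the gene's symbol or a synonym of it, and 8 of the 9 genes had a probe, out of 16390 genes named on the array. Irf9 was found under its older name Isgf3g, each of the 8 genes had 1 probe, and Isg15 matched no probe, so its RNA was not analysed here. Of the 8 genes, 7 were above background on all 4 arrays, and Ifit1 was above it only on the normal arrays.

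RNA came from 4 sorted samples, 1 array each, of intestinal tumors and of normal small intestine, all from male mice that carried Dclk1CreERT2/+. Dclk1+ tumor cells were pooled from 7 mice that also carried ApcMin/+, aged more than 16 weeks, and Dclk1- tumor cells came from 1 such mouse aged 17 weeks. Dclk1+ normal cells were pooled from 2 mice without ApcMin/+, aged 26 weeks, and Dclk1- normal cells came from 1 such mouse, also aged 26 weeks. Dclk1+ tumor cells were sorted by GFP, and neither the gate of the other samples nor a GFP reporter allele is given in the sources used here. With 1 array in each group there was no replicate and no test, so that each difference below is between a pair of arrays, and the order of neighbouring samples cannot be set against a spread.

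Interferons are secreted alarm signals of infected or stimulated cells. Type I and type III interferons act through receptors bound to the kinases Jak1 and Tyk2, which activate Stat2. Together with Irf9 it enters the nucleus, binds the interferon-stimulated response element (ISRE) and switches on antiviral genes. Interferon gamma acts mainly on another element, the gamma-activated sequence. In the gut, type III interferon acts mainly on epithelium. Dclk1 marks tuft cells, the rare chemosensory cells of that epithelium.

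Levels below are the intensities that the authors deposited, on a linear scale on which each array's listed probes have a median of 25; a dim probe is not listed. These levels carry a scale of their own on each array, so differences are given as log2 differences of quantile-normalized signals, in which an added offset of 50 shrinks the differences of dim probes. A gene was called higher or lower at 2-fold or more, if either of the 2 arrays showed it above background, which is the mean of the blank spots plus 2 SD. Levels were not compared between genes.

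The sort and the tissue were checked first. The 14 tuft markers with a probe had a summed level of 20041 in Dclk1+ tumor cells and 456 in Dclk1- tumor cells, and of 85953 in Dclk1+ normal cells and 424 in Dclk1- normal cells. Dclk1 itself (probe Dcamkl1) stood at 61.8, 9.49, 736 and 179.8 in the same order, so it was dimmer in Dclk1+ tumor cells than in Dclk1- normal cells, also in the normalized signals (6.64 and 7.59 on the log2 scale). Its log2 difference for Dclk1+ over Dclk1- cells was 0.69 in tumor, short of 2-fold, and 1.41 in normal, and for tumor over normal it was -2.36 in Dclk1+ and -1.64 in Dclk1- cells. All 6 epithelial markers with a probe were above background on all 4 arrays. In bulk RNA of sorted cells, fewer cells of a type and less RNA per cell cannot be told apart. Tumor and normal samples differed also in ApcMin/+, in age and in how closely the local background followed the spots of their arrays. The Dclk1+ ones differed in the number of mice as well. These and histology cannot be told apart in any comparison of tumor with normal. Dclk1+ and Dclk1- cells came from 7 mice and 1 mouse in tumor, and from 2 mice and 1 mouse in normal. Sort and animals thus cannot be told apart in either Dclk1 contrast.

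The promoters of the called genes are shown first, because the ISRE is the element that Stat2 and Irf9 bind. RefSeq promoter windows, 250 bases before the annotated start and 50 from it, were found for 8 of the 9 genes, Oas2 being without an entry. The core ISRE was searched on both strands as GAAA, any 2 bases and again GAAA, which reads as TTTC, any 2 bases and TTTC on the other strand, and it stood in 6 of the 8 genes: Oas1a, Rsad2, Bst2, Ifit1, Isg15 and Stat2. Among all 32851 promoter windows of the table, 3.44% held it. The windows of the 4 called genes that have one are given 5′ to 3′ in the direction of the gene, with the ISRE cores in capitals.
Bst2, GRCm38.p6 chr8:71537423-71537722, minus strand: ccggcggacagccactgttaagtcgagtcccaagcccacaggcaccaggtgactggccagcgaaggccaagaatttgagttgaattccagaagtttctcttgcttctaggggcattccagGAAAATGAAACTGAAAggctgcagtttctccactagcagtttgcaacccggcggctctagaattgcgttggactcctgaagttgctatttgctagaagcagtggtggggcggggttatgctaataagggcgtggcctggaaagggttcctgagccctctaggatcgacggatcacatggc
Rsad2, GRCm38.p6 chr12:26456403-26456702, minus strand: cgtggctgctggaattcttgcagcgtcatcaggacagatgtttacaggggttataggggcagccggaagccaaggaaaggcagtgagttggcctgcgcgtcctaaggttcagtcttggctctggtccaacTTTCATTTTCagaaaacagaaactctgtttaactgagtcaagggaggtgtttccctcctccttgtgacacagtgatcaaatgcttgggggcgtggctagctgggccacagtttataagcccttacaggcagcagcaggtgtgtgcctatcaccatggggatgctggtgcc
Oas1a, GRCm38.p6 chr5:120907476-120907775, minus strand: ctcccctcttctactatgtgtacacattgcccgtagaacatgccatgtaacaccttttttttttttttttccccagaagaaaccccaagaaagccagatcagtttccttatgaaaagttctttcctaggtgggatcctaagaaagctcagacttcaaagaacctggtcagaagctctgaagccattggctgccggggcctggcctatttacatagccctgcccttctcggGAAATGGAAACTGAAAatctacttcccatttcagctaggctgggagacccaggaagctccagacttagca
Stat2, GRCm38.p6 chr10:128270248-128270547, plus strand: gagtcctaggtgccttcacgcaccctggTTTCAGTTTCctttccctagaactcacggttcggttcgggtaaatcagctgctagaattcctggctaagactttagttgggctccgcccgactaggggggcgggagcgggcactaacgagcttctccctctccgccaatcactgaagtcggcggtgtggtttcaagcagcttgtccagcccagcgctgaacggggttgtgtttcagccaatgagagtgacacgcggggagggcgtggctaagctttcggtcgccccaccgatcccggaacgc

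In Oas1a a pair of overlapping cores, GAAATGGAAA and GAAACTGAAA, lay from 20 to 5 bases before the start, and in Bst2 a like pair, GAAAATGAAA and GAAACTGAAA, lay from 130 to 115 bases before it. Rsad2 held 1 core, TTTCATTTTC, from 120 to 111 bases before the start, and Stat2 held 1, TTTCAGTTTC, from 222 to 213 bases before it. Ifit1 had 2 separate cores (from 104 to 95 and from 85 to 76 bases before the start) and Isg15 had 3 overlapping ones, from 78 to 57 bases before it. The gamma-activated sequence, searched as TTCNNNGAA, was found in Oas1a (TTCAAAGAA) and in Bst2 (TTCCAGGAA, which overlaps the first ISRE core by some bases), against 8.30% of all windows. The windows of Irf7 and Irf9 held neither set of letters, which says nothing of sites outside them. A match of letters is a description and not a measured binding site.

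**Figure D1:**
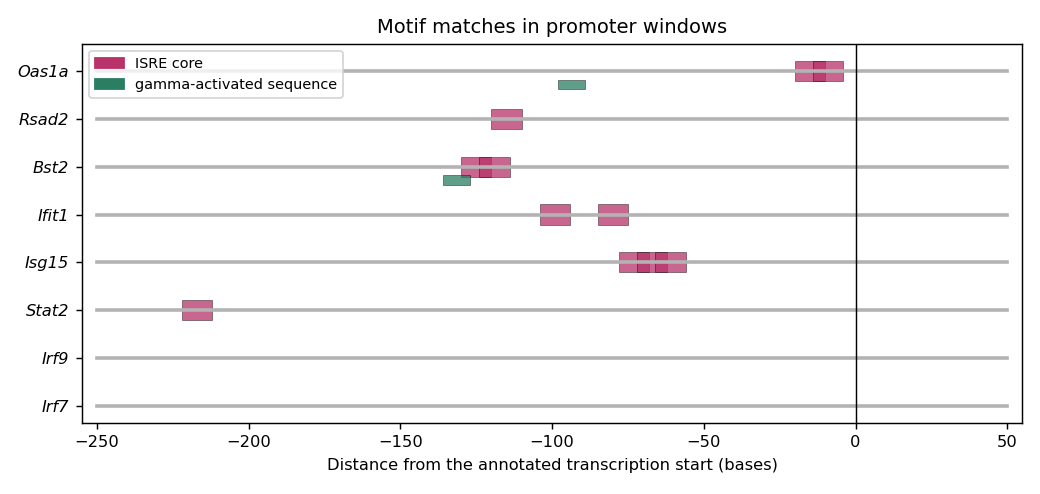
Positions of motif matches in the promoter windows of 8 genes, with the distance from the annotated transcription start in bases on the x axis and 1 line for each gene (the windows of Irf9, which has 2, hold no match). Tall bars are ISRE cores and low bars are gamma-activated sequences; 6 genes hold a core, at distances from 5 to 222 bases before the start.

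The RNA-degrading branch of the antiviral response is run by the oligoadenylate synthetases, which sense double-stranded RNA and make the signal that activates RNase L. Oas1a stood at 1861 in Dclk1+ tumor cells and 231 in Dclk1- tumor cells, and at 10718 in Dclk1+ normal cells and 1845 in Dclk1- normal cells. It was thus brighter in the Dclk1+ sample of both pairs, and dimmer in the tumor sample of both sorts. The log2 differences were 2.59 (6.01-fold) for Dclk1+ over Dclk1- in tumor and 2.16 (4.48-fold) in normal, and -2.11 and -2.53 for tumor over normal in Dclk1+ and in Dclk1- cells. Dclk1+ tumor and Dclk1- normal cells had close levels, and Dclk1+ normal cells stood above all. Where the local background of each spot was subtracted, the difference in tumor was 1.43 and that between the Dclk1- samples -1.58.

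Oas2, a longer synthetase of the same family, stood at 308 in Dclk1+ tumor cells and 19.1 in Dclk1- tumor cells, and at 2838 in Dclk1+ normal cells and 46.2 in Dclk1- normal cells. Both Dclk1- samples were dim and both Dclk1+ samples were bright, with the normal one on top. The log2 difference in normal, 4.25 (19.0-fold), was the 28th highest of 12844 genes, and that in tumor was 2.01 (4.04-fold). Between tumor and normal it was -2.55 in Dclk1+ cells, the 11th lowest of 12869 genes, and -0.31 in Dclk1- cells.

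Of the antiviral effectors, Rsad2 encodes viperin, which makes a chain-terminating nucleotide that stops viral RNA synthesis. It stood at 263 in Dclk1+ tumor cells and 64.1 in Dclk1- tumor cells, and at 2650 in Dclk1+ normal cells and 567 in Dclk1- normal cells. Here both normal samples were above both tumor samples, and within each tissue the Dclk1+ sample was the higher. The log2 differences were 1.20 (2.30-fold) in tumor and 1.67 (3.19-fold) in normal, and -2.64 and -2.17 for tumor over normal in Dclk1+ and Dclk1- cells. The value in Dclk1+ cells was the 7th lowest of 12869 genes. In tumor the call was lost at 0.99 with median scaling of the arrays, and at 0.99 with the local background subtracted, which also brought the value between the Dclk1- samples to -1.19.

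Bst2 encodes tetherin, a membrane protein that holds budding virus particles at the cell surface. Its level was 387 in Dclk1+ tumor cells and 137 in Dclk1- tumor cells, and 2145 in Dclk1+ normal cells and 189.8 in Dclk1- normal cells. Dclk1+ normal cells stood apart from the other 3 samples. The log2 difference was 2.69 (6.44-fold) in normal, and in tumor it was 1.00, just short of 2-fold. Tumor over normal gave -1.93 in Dclk1+ cells and -0.24 in Dclk1- cells.

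Bst2 and Irf7 are also expressed by plasmacytoid dendritic cells, and so the markers of that cell type are given beside them. Of its 6 markers with a probe other than Bst2, Irf7 and the transcription factor Irf8, 4 and 3 were above background in Dclk1+ and Dclk1- tumor cells, and 5 and 3 in Dclk1+ and Dclk1- normal cells, in that order with summed levels of 58.3, 39.4, 138.3 and 164.9. The receptor Siglech, which defines those cells in mice, stood at 25.2, 12.4, 40.8 and 27.8. The part of such cells in the levels of Bst2 and Irf7 was not tested. Irf8, which is also a factor of other leukocytes, stood at 150.2 and 114.3 in Dclk1+ and Dclk1- tumor cells and at 32.6 and 268.7 in Dclk1+ and Dclk1- normal cells.

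Ifit1, which binds viral RNA that lacks the host's cap methylation, was not listed in either tumor sample and stood at 3.08 in Dclk1+ normal cells and 3.38 in Dclk1- normal cells. These are levels at the edge of the background, 2.07 and 2.36 blank-spot SDs above the blank spots. Its relatives Ifit2 and Ifit3 were not above background on any of the 4 arrays. No difference of these 3 genes could be detected at this signal.

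Stat2, Irf9 and Irf7 transmit the signal. Stat2 stood at 116 in Dclk1+ tumor cells and 19.9 in Dclk1- tumor cells, and at 619 in Dclk1+ normal cells and 378 in Dclk1- normal cells, so that its levels were ordered by tissue first. The log2 difference for tumor over normal was -2.29 (4.90-fold lower) in Dclk1- cells and -1.67 (3.17-fold lower) in Dclk1+ cells. For Dclk1+ over Dclk1- cells it was 0.99 in tumor, just short of 2-fold, and 0.37 in normal. With the offset lowered to 16 the tumor value was 1.54, and with the local background subtracted the value for Dclk1- tumor over normal was -0.97.

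Irf9, the DNA-binding partner of Stat2, stood at 15.8 in Dclk1+ tumor cells and 8.28 in Dclk1- tumor cells, and at 46.0 in Dclk1+ normal cells and 23.6 in Dclk1- normal cells. Irf7, the factor that amplifies interferon production, stood at 11.9 and 9.31 in the Dclk1+ and Dclk1- tumor samples, and at 56.0 and 37.6 in the Dclk1+ and Dclk1- normal samples. Both were dim, and their log2 differences lay within -0.57 and 0.27 in all 4 comparisons, on a scale where dim probes are compressed. In Dclk1+ tumor over normal, Irf7 passed 2-fold with offset 16 (-1.05), plain subtraction (-2.10) and the deposited values (-2.23), and Irf9 with the last 2 of these (-1.40 and -1.54). In Dclk1- tumor over normal both passed it with plain subtraction and the deposited values, Irf7 at -1.67 and -2.01 and Irf9 at -1.16 and -1.51. In all, 7 of the 8 genes were highest in Dclk1+ normal cells, as were 32.8% of the 13467 genes detected, and 7 were lowest in Dclk1- tumor cells, as were 28.9% of those genes. Ifit1 was the exception in both. For Irf7 and Irf9 the lowest sample rests on differences of 0.01 and 0.10 in tumor, which were -0.09 and -0.05 with the local background subtracted.

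**Figure D2:**
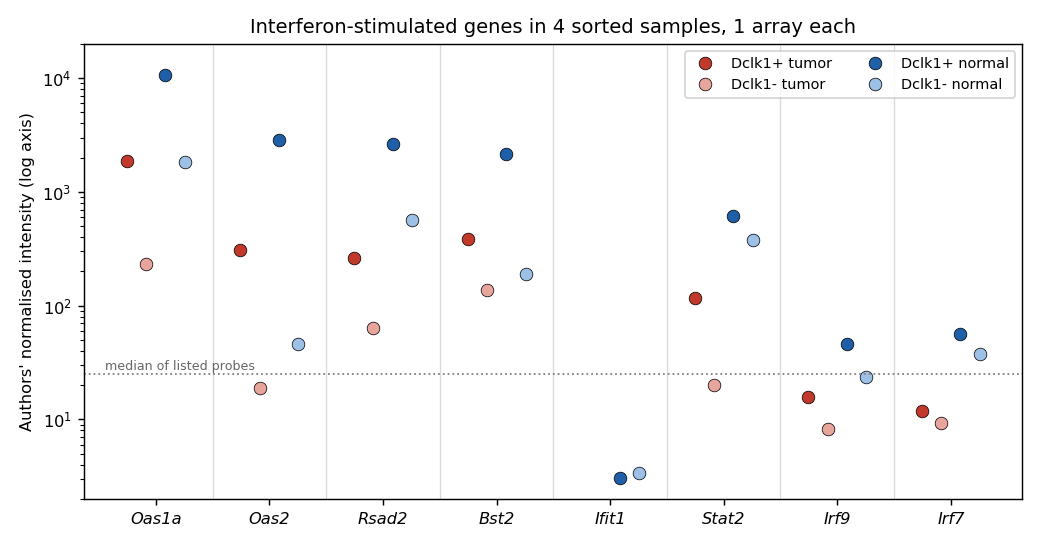
Deposited normalised intensity of 8 interferon-stimulated genes on a log axis, 1 point for each sample (1 array each), with the dotted line at 25, the median of the listed probes; an unlisted value has no point. Dclk1+ normal cells are the highest sample in 7 genes, and Oas1a, for example, is at 10718 there.

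Dclk1+ tumor cells were then set against Dclk1- tumor cells. Of the 7 genes detected in these samples, 3 were higher by 2-fold or more, Oas1a, Oas2 and Rsad2, and 0 were lower, with a median log2 difference of 1.00 against 0.01 over all 12197 genes. Of all genes, 1.76% were called higher and 2.13% lower. At 4-fold, 2 of the 7 (Oas1a and Oas2) were higher and 0 lower, against 0.435% and 0.287% of all genes. Of the tuft markers 10 of 13 were also 2-fold higher, and of the enterocyte markers 6 of 10 were 2-fold lower. The myeloid markers had a summed level of 2233 in Dclk1+ and 4668 in Dclk1- cells, and 3 of 16 were 2-fold lower (Fcer1g, -1.88, C1qa, -1.71, and C1qb, -1.43) and 0 higher. The macrophage genes Adgre1 and Itgam were not listed on any array. Lymphocyte markers went the other way in their sums, 348.2 for the Dclk1+ sample against 151.5 for its Dclk1- partner. Of the 9 lymphocyte markers detected in this pair, 0 were 2-fold higher or lower, and their median log2 difference was 0.005. The part of these cells in the differences was not tested.

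Dclk1+ normal cells were likewise set against Dclk1- normal cells. All 8 genes were above background in at least 1 sample of this pair, 4 were at least 2-fold higher (Oas2, Bst2, Oas1a and Rsad2) and 0 were lower, and the median was 1.02 against 0.01 over all genes. Of all genes, 5.66% were called higher and 5.92% lower. At 4-fold, 3 of the 8 (Oas2, Bst2 and Oas1a) were higher and 0 lower, against 1.61% and 2.16% of all genes. Of the tuft markers 13 of 14 were higher, of the enterocyte markers 7 of 10 were lower and 1 higher (Fabp1, 1.60), and 3 of 14 myeloid markers were also higher: Aif1 (1.66), Ptprc (1.55) and C1qb (1.32), with summed myeloid levels of 2729 in Dclk1+ and 888 in Dclk1- cells. Ptprc is the pan-leukocyte marker CD45. Lymphocyte markers had summed levels of 322.8 and 344.8, with Cd3e not listed on any array. The part of leukocytes in the higher interferon-stimulated genes was not tested.

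The contrasts in tumor and in normal share no array and can be set side by side. Oas2 was at 2.01 in tumor and 4.25 in normal, a gap of -2.24, and Bst2 at 1.00 and 2.69, a gap of -1.69. The gap was 0.42 for Oas1a, -0.47 for Rsad2 and 0.63 for Stat2. Under the 7 other ways of processing, the gap of Oas2 stayed between -2.44 and -1.81 and that of Bst2 between -2.003 and -1.69, whereas those of Oas1a, Rsad2 and Stat2 each took both signs. The mean over probes is among the 7 and only repeats the main values, because each of these genes had 1 probe. The tuft markers as a list also had a smaller median in tumor, 2.86 over 13 genes, than in normal, 4.62 over 14. Of all 13467 genes, 4.40% had a gap of -1 or lower. No test of these gaps could be made.

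**Figure D3:**
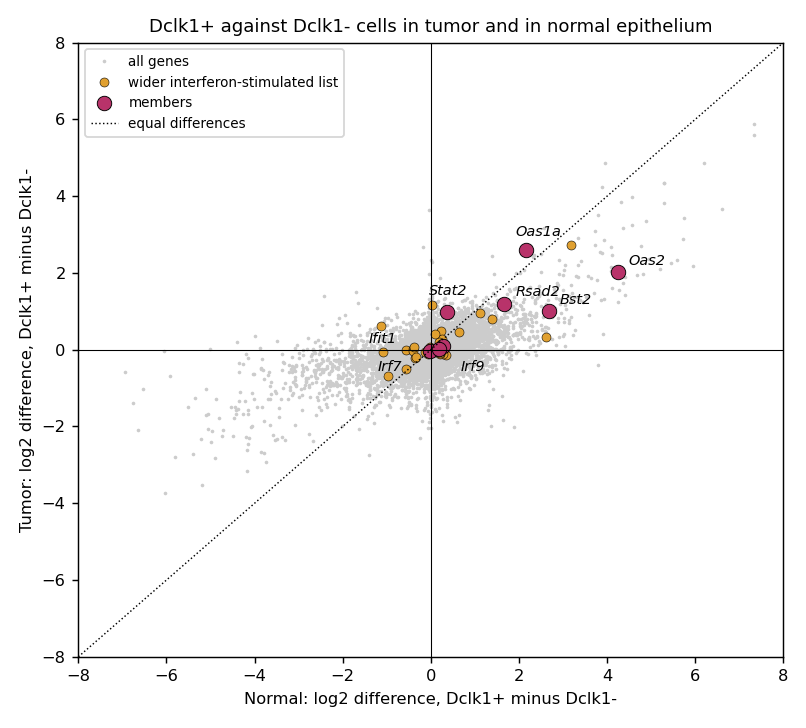
Log2 difference of Dclk1+ minus Dclk1- cells in normal epithelium (x axis) against the same in tumor (y axis), with 1 point for each gene detected; members, a wider list of interferon-stimulated genes and all genes are coloured apart, and the dotted line marks equal differences. Oas2 (2.01 in tumor, 4.25 in normal) and Bst2 lie below the line, and Oas1a lies slightly above it.

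Among Dclk1+ cells, tumor was set against normal. All 8 genes had a negative difference, 5 of them at least 2-fold lower (Rsad2, Oas2, Oas1a, Bst2 and Stat2) and 0 higher, with a median of -1.80 against -0.03 over all genes. Of all genes 4.2% were called lower and 4.27% higher. At 4-fold, Rsad2, Oas2 and Oas1a were lower (3 of 8) and 0 higher, against 0.42% and 1.17% of all genes. Of the tuft markers 10 of 14 were 2-fold lower too, and so were 3 of 6 epithelial markers: Vil1 (-1.92), Cdx2 (-1.15) and Epcam (-1.08). Among enterocyte markers 1 of 10 was lower (Fabp1, -1.71) and 0 higher. Among myeloid markers 2 of 16 were higher, Cd14 (1.30) and S100a8 (1.15), and 0 lower, with a list median of -0.04. Among stromal and endothelial markers 1 of 10 was higher, the smooth muscle actin gene Acta2 (1.41), and 0 lower. The part of these cells in the lower levels was not tested.

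Among Dclk1- cells, tumor was again set against normal. All 8 differences were negative, although Bst2 (0.04) and Irf9 (0.05) were not with the local background subtracted, and Oas1a, Stat2 and Rsad2 were at least 2-fold lower (3 of 8, with 0 higher). The median was -0.35, against -0.02 over all genes, and 5.24% of all genes were called lower and 5.83% higher. The same 3 were 4-fold lower and 0 were higher, against 1.3% and 1.17% of all genes. In these cells Oas2 and Bst2, at -0.31 and -0.24, were close to level. Of 12 tuft markers Dclk1 was 2-fold lower (-1.64) and Ptgs1 (1.67) and Avil (1.30) were higher, while 8 of 16 myeloid markers were 2-fold higher and 0 lower, and 7 of 10 enterocyte and 3 of 6 epithelial markers (Vil1, -2.64, Cldn7, -1.61, and Cdx2, -1.33) were 2-fold lower. Among stromal and endothelial markers 1 of 10 was higher, Acta2 (2.03), and 0 lower. Among lymphocyte markers 1 of 12 was lower, the T cell gene Cd8a (-1.31), and 0 higher. Of the plasmacytoid list 1 of 7 was lower, Klk1 (-1.11), and 0 higher. The part of these cells in the differences was not tested. The comparisons of tumor with normal share arrays with both Dclk1 contrasts, so their values for a gene are not independent of each other.

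**Figure D4:**
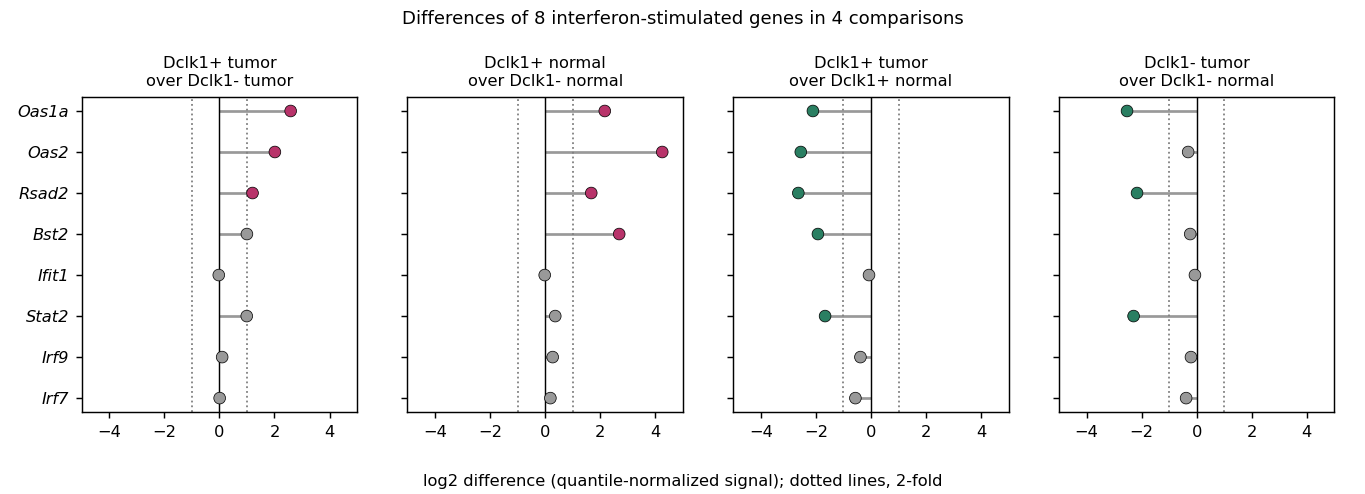
Log2 differences of the 8 genes in the 4 comparisons, the sample named first over the sample named second, with dotted lines at 2-fold. Coloured points pass 2-fold: 3 and 4 genes are higher in Dclk1+ than in Dclk1- cells of tumor and normal, and 5 and 3 are lower in tumor than in normal among Dclk1+ and Dclk1- cells.

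The rest of the pathway was read from lists chosen by function. Of 19 interferon genes 7 had a probe, and all were dim or unlisted: the levels of Ifne were 15.6 and 10.1 in Dclk1+ and Dclk1- tumor cells and 21.4 and 11.03 in Dclk1+ and Dclk1- normal cells, and those of Ifnl3 were 14.9, 5.98, 11.6 and 8.23 in the same order. Ifnb1, the first interferon made on infection, stood at 42.2 in Dclk1- normal cells and was not above background in the other 3 samples, so that among normal cells its level in the Dclk1+ sample was lower by at least 1.54-fold. None of the interferon genes was 2-fold apart in any comparison, on a scale that compresses dim genes. Genes of the lists that are named without being called were chosen after their values were seen.

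Receptor chains differed from each other. Il10rb, the chain shared by the receptors of type III interferon and of interleukin-10, stood at 1174 in Dclk1+ tumor cells and 586 in Dclk1- tumor cells, and at 9028 in Dclk1+ normal cells and 1847 in Dclk1- normal cells. It was called higher in Dclk1+ normal cells (1.92), and lower in tumor among Dclk1+ (-2.52) and Dclk1- cells (-1.32), which is the order of samples seen in Rsad2. Ifnlr1, the other chain of the type III receptor, was not above background on any array. Ifnar2, of the type I receptor, was on the Dclk1- side in normal (-1.10), and Ifnar1 was not called in any comparison. The kinase Tyk2 was called in normal (1.06) and Jak1 was not called in any comparison.

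Among RNA and DNA sensors, 0 of 12 were called between Dclk1+ and Dclk1- cells in either tissue. Between tumor and normal, 3 of 11 were lower in Dclk1+ cells: Zbp1, a sensor of Z-form nucleic acid (-2.03), Ddx58, which encodes RIG-I (-1.41), and the adaptor Myd88 (-1.10). In Dclk1- cells 2 of 12 were lower, Zbp1 (-2.61) and Mavs, the adaptor of RIG-I (-1.15), and 0 were higher in either sort. The shares of all genes called lower were 4.2% in Dclk1+ and 5.24% in Dclk1- cells. Of the feedback and ISG15-conjugation list of 9 genes, the phosphatase Ptpn6 was called in 3 comparisons (1.51 and 2.81 for Dclk1+ over Dclk1- in tumor and normal, and -1.27 for Dclk1+ tumor over normal) and no other member was called. Of 6 further Irf and Stat genes, Irf8 was lower in Dclk1+ than in Dclk1- normal cells (-1.80) and higher in Dclk1+ tumor than in Dclk1+ normal cells (1.13), and Irf1 was lower in tumor among Dclk1+ (-1.76) and Dclk1- cells (-2.46). Ptpn6 is also highly expressed in blood cells.

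A wider list of 49 further interferon-stimulated genes, of which 41 had a probe, had medians nearer to 0 than the 8 genes. The members and lists were chosen with earlier results of these data known, so the choice itself may enter this difference of medians. Between Dclk1+ and Dclk1- tumor cells 2 of 32 were higher, Ifi27 (2.73, probe D12Ertd647e) and Parp14 (1.16), and 0 lower, with a list median of 0.03. In normal 4 of 37 were higher: Ifi27 (3.19), the secreted glycoprotein gene Lgals3bp (2.61), Trim25, a ubiquitin ligase of the RIG-I pathway (1.39), and Rnf213 (1.11). Rtp4 (-1.13) and Nmi (-1.08) were lower there, and the list median was 0.02. The shares of all genes called higher and lower were 1.76% and 2.13% in tumor, and 5.66% and 5.92% in normal. The 2 of 37 lower in normal lay near that share. Ifi27 stood at 4372 in Dclk1+ tumor cells and 509 in Dclk1- tumor cells, and at 15693 in Dclk1+ normal cells and 1238 in Dclk1- normal cells, the same order of samples as in Oas1a.

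For tumor over normal, 7 of 36 genes of that list were lower in Dclk1+ cells and 7 of 35 in Dclk1- cells, with 0 higher in either and medians of -0.31 and -0.28. The shares of all genes called lower were 4.2% and 5.24%. Oasl1, a synthetase-like protein that limits Irf7, was at -2.32 and -2.46, and Parp14 at -1.88 and -3.02 in Dclk1+ and Dclk1- cells. Lgals3bp (-1.92) and Ifi27 (-1.41) were among those lower in Dclk1+ cells, and Nmi (-2.19) and Rtp4 (-2.06) among those lower in Dclk1- cells. Oasl1 stood at 162 in Dclk1+ tumor cells and 172 in Dclk1- tumor cells, and at 1405 in Dclk1+ normal cells and 1364 in Dclk1- normal cells, so it followed the tissue and not the sort. Probes of the synthetase family may bind RNA of more than 1 of its members. In the promoter windows of this list, 17 of 39 genes with a window held an ISRE core and 5 of 39 a gamma-activated sequence. Among all windows, 3.44% and 8.30% held them, counted by window, and a gene can have more than 1.

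**Figure D5:**
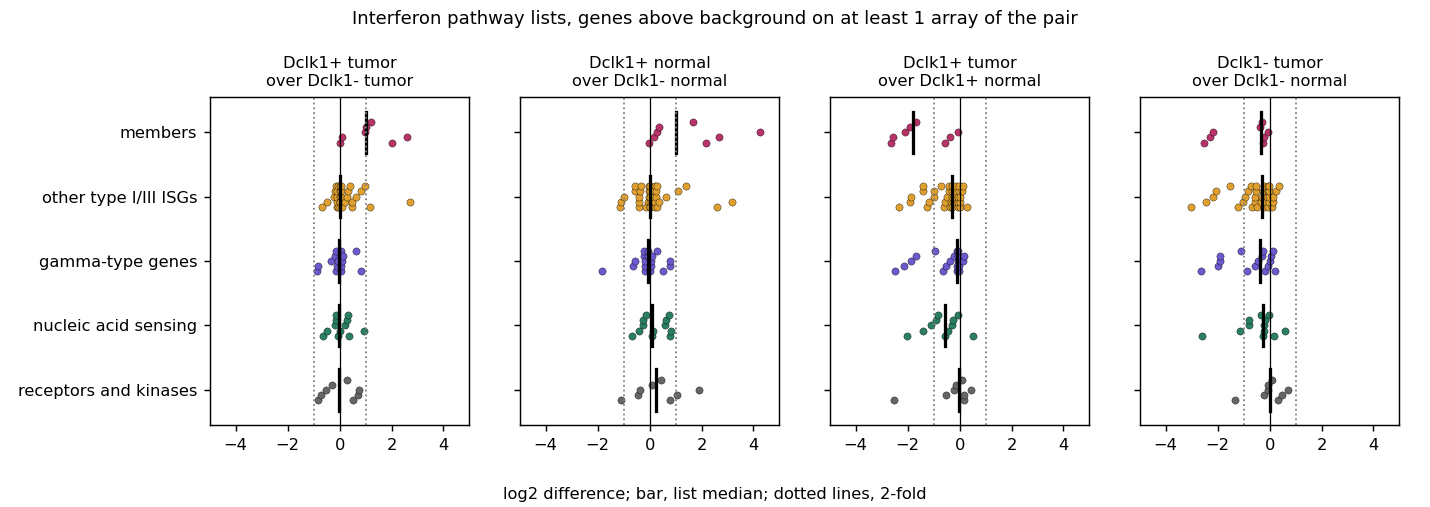
Log2 differences of single genes (points) and list medians (bars) for the 8 genes and 4 pathway lists in the 4 comparisons, over genes detected in the pair, with dotted lines at 2-fold. The members' medians are 1.00, 1.02, -1.80 and -0.35, against 0.03, 0.02, -0.31 and -0.28 for the wider list. Members and lists were chosen with earlier results of these data known.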

How the data were processed

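Per the labels' protocols, RNA of sorted cells was amplified with an amino allyl kit and coupled to Cy5. Per the file headers, each scanner table gives the median intensity of a spot and of its local background, with linear fits between scanner gains. The authors also deposited 1 table of linear intensity for the series, in which every array's median is 25; the labels do not state how it was scaled. Between 63.3% and 70.9% of 23473 probes exceeded the mean of 2736 blank spots plus 2 SD, the limit used for background.

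Spot signals were corrected with normexp (offset 50) in limma 3.58.1 (R 4.3.3) without subtracting local background, which followed the spot (correlation of logs 0.969 and 0.979 on the Dclk1+ and Dclk1- tumor arrays, 0.938 and 0.921 on the Dclk1+ and Dclk1- normal arrays). Flagged spots were dropped before quantile normalization between the 4 arrays, and values were taken as log2. The procedure was tested on simulated data in which only bright probes were changed, by 4-fold. That test did not cover dim probes or differences near 2-fold. Probes were named from the platform table and GRCm38.p6 RefSeq synonyms; a gene with several probes took the brightest. Promoter sequences are RefSeq's. For the array's own build, the sources used here name none.

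With 1 array in each group no test was made. For each list beside the members, up to 4 genes with the largest differences among those called were named, and all where 5 or fewer were called, and the genes nearest in pattern were taken by Euclidean distance. The members and lists were chosen with earlier results of these data known. Alternatives were an offset of 16, median and 75th percentile scaling, plain subtraction, local background, the deposited values, the mean over probes, background on both arrays and a 4-fold threshold.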

Additional observations from a re-analysis of the deposited data

How the results depend on the processing

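The called differences of the 8 members kept their sign in the settings tried; single genes of the other lists were not recomputed. Of the 3 members higher in Dclk1+ tumor cells, offset 16, plain subtraction and the deposited values made 5, adding Bst2 and Stat2. In these settings Bst2 was at 1.17, 1.29 and 1.496, and Stat2 at 1.54, 2.30 and 2.54. Offset 16 and plain subtraction shrink dim differences less by construction, whereas the scaling of the deposited values is not stated. Why Bst2 and Stat2 passed 2-fold was not tested. The 5 lower in Dclk1+ tumor over normal became 3 at a 4-fold threshold and 7 with plain subtraction or the deposited values, adding Irf7 and Irf9, and the 3 lower in Dclk1- tumor over normal became 5 with plain subtraction and 6 with the deposited values. In all, 66 of 72 recounts stayed within 1.5 times, and those from 5 to 7 are among them. The 72 include the direction of each comparison in which 0 members were called. They also include the mean over probes, which cannot change members with 1 probe each. The total is thus no measure of how firm the called members are. The wider list was more dependent: for Dclk1+ over Dclk1- in tumor, 2 higher and 0 lower became 6 and 5 with plain subtraction and 9 and 3 with the deposited values, 4 higher with offset 16, and 1 higher with median scaling or at 4-fold. In normal 4 and 2 became 10 and 6 with plain subtraction, 12 and 4 with the deposited values, and 2 and 0 at 4-fold. For tumor over normal, the 7 lower in Dclk1+ cells became 11 with offset 16, 20 with plain subtraction, 21 with the deposited values and 1 at 4-fold, and the 7 in Dclk1- cells became 18, 22 and 4 with plain subtraction, the deposited values and 4-fold; 1 higher gene appeared with plain subtraction in both sorts, and with the deposited values in Dclk1+ cells. The deposited values moved the median of all genes to 0.35 and 0.27 for Dclk1+ over Dclk1- in tumor and normal, and to -0.40 and -0.50 for tumor over normal in Dclk1+ and Dclk1- cells; 75th percentile scaling moved it to 0.13 and 0.14 in the first 2. No paired analysis was possible because each group holds 1 sample. Signals near the blank spots limit Ifit1, Irf7 and Irf9.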

Other observations

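Genes of the interferon gamma type, which serve antigen processing and cell-autonomous defence, are given by sort and then by tissue. Of 16 above background between Dclk1+ and Dclk1- tumor cells 0 were 2-fold higher or lower, and in normal 0 of 18 were higher and 1 lower, Ido1 (-1.84), an enzyme of tryptophan breakdown. For tumor over normal, 4 of 19 were lower in Dclk1+ cells: Gbp4 (-2.47, probe Mpa2), the immunoproteasome subunits Psmb8 (-2.14) and Psmb9 (-1.85), and Tapbp (-1.69), which encodes tapasin. In Dclk1- cells 5 of 16 were lower: Psmb9 (-2.66), Tapbp (-2.003), Psmb8 (-1.92), Psmb10 (-1.09) and Ido1, at least 3.51-fold. Of these genes 0 were 2-fold higher in tumor in either sort, and the other 15 of 19 and 11 of 16 were not called. Over all genes, 4.2% were called lower in Dclk1+ and 5.24% in Dclk1- cells. Irf1, the factor that drives many of them, stood at 2316 in Dclk1+ tumor cells and 1534 in Dclk1- tumor cells, and at 10405 in Dclk1+ normal cells and 9774 in Dclk1- normal cells.

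The mean pattern of the 7 members above background on all arrays, each centred on its own log2 mean, was -0.15 and -1.28 in the Dclk1+ and Dclk1- tumor samples, and 1.54 and -0.12 in the Dclk1+ and Dclk1- normal samples. Among 9628 other genes the nearest patterns over the 4 samples, by Euclidean distance, were those of Pfkfb3 (0.19), which sets the rate of glycolysis, Fabp1 (0.22), a fatty acid binding protein, Gucy2c (0.22), the receptor of guanylin, Tmem229b (0.25) and Polr3gl (0.28). The members themselves lay between 0.81 (Bst2) and 1.94 (Oas2) from their mean. Nearest to Oas2 alone were Tslp (0.34), an alarmin cytokine of epithelia, Ccnj (0.59) and Rgs2 (0.60). These distances rest on 4 samples.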
